A study of Drosophila melanogaster with 4 samples.

Results

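HP1b clusters on the right arm of chromosome 3 (3R) were taken as the enriched regions of the authors' combined set that start beyond the first 2 Mb of the arm, the end that faces the centromere. This gave 1380 of the 8426 clusters of the combined set, or 16.4%, along 25.9 Mb of FlyBase release 5. The same stretch held 937 of 5191 clusters in ChIP replicate 1 (Rep1) and 1185 of 6337 in ChIP replicate 2 (Rep2). All libraries came from whole third-instar larvae of wild-type Oregon-R Drosophila melanogaster, immunoprecipitated with the HP1b (Henikoff) antibody. The group analysed had 2 ChIP libraries. The labels also list 2 Input libraries of the same strain and stage, which were not analysed here. Nothing in the labels says that the ChIP libraries came from separate collections of larvae, and their spread may be technical only. Whole larvae mix many cell types, and a region bound strongly in few cells cannot be told apart from one bound weakly in many.

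HP1b is a member of the heterochromatin protein 1 family, which joins a chromodomain that reads methylated histone H3 to a chromoshadow domain that pairs with other proteins. The founding member, HP1a, is known mainly from heterochromatin around centromeres, whereas HP1b has been seen in flies in both heterochromatin and euchromatin, the gene-rich body of the arms. The stretch examined is called euchromatic from its position alone, since chromatin state was not measured. A cluster is a stretch of enrichment called by the authors, with a start, an end and a score whose scale is not given in the sources used here. Scores are therefore read by their percentile among all clusters of the same list, and raw scores may not compare between lists. The combined set was made from the same libraries, so its values carry no error and are not independent of the replicates.

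Clusters covered a small part of the arm as many short, separate regions. They took up 8.70% of the 25.9 Mb in Rep1 and 11.8% in Rep2, a mean of 10.2% ± 2.16 (SD, n = 2), and 13.3% in the combined set. There were 36.2 clusters per Mb in Rep1, 45.7 in Rep2 and 53.3 in the combined set, with a mean of 41.0 ± 6.77 over the replicates (SD, n = 2). Rep2 covered 1.35 times as many bases as Rep1. It covered more in every one of the 25 full 1-Mb windows, by a factor of 1.13 to 1.65. Read depth is unknown, because the files list clusters and hold no read counts, and whether depth moves with this excess was not tested.

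Most clusters were close to one size. The median width was 2190 bp in Rep1, 2278 bp in Rep2 and 2206 bp in the combined set. The interquartile range of the widths ran from 1944 to 2563 bp in Rep1 and from 1992 to 2779 bp in Rep2. The narrowest cluster measured 1.30 kb in both libraries, while the combined set reached down to 1001 bp. Combined widths were most often near 2 kb, with 179 members between 1750 and 2000 bp, 237 between 2000 and 2250 bp and 187 between 2250 and 2500 bp. A further 134 lay in the lowest class, between 1000 and 1250 bp, and the classes at 1250 to 1500 bp and 1500 to 1750 bp held 87 each. Wide clusters were few. Those of at least 5 kb numbered 23 in Rep1, 47 in Rep2 and 62 in the combined set, where they held 12% of the covered bases. Wider clusters had higher scores, with a Spearman rho of 0.779 in Rep1, 0.761 in Rep2 and 0.729 in the combined set across 937, 1185 and 1380 clusters, which share a library and are described without a test.

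**Figure D1:**
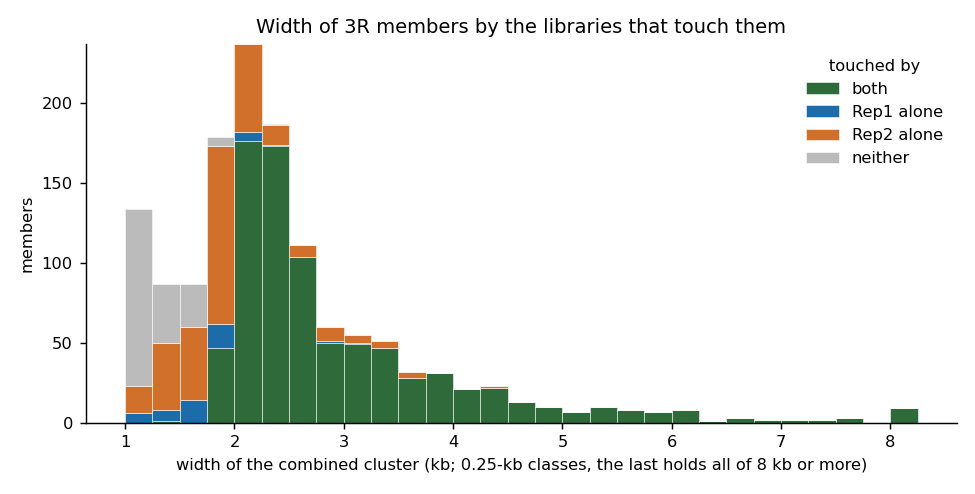
Number of 3R members (vertical axis) by width of the combined cluster in kb (horizontal axis, 0.25-kb classes), stacked by the libraries whose clusters touch them. Members of about 2 kb and wider are mostly touched by both libraries, and the narrow class between 1000 and 1250 bp is mostly touched by neither.

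Spacing along the arm was uneven, with tight groups and long bare stretches. The median gap between neighbouring clusters was 8303 bp in Rep1, 6641 bp in Rep2 and 5671 bp in the combined set, far below the mean gaps of 25215 bp, 19280 bp and 16268 bp. Gaps under 1 kb made up 10.6% of those in Rep1, 13.3% in Rep2 and 16.0% in the combined set. At the other end, 132 gaps in Rep1 and 125 in Rep2 reached 50 kb. Those long gaps were 14.1% and 10.6% of the gaps, yet they spanned 56.6% of the stretch in Rep1 and 47.6% in Rep2. In the combined set 117 gaps of at least 50 kb spanned 42.7%.

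**Figure D2:**
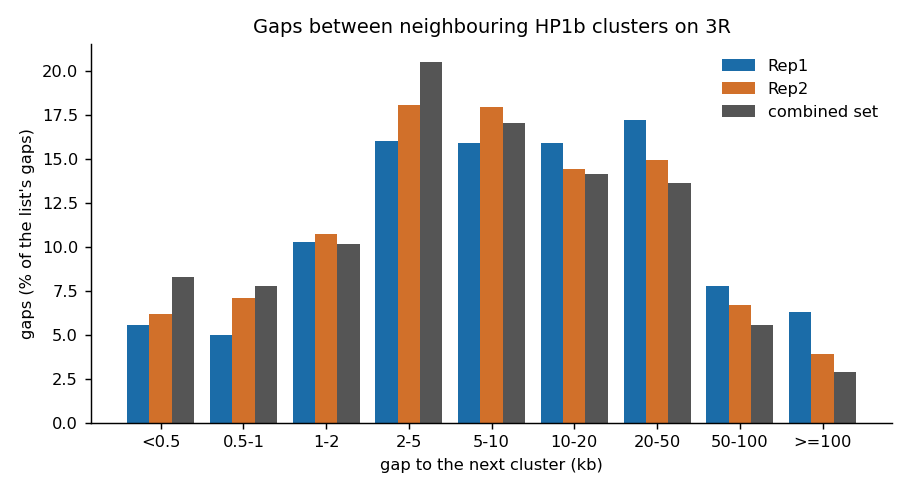
Share of gaps (vertical axis, percent of the gaps in a list) by the length of the gap to the next cluster (horizontal axis, kb, unequal classes), for the replicates and the combined set. In the combined set the fullest class is 2 to 5 kb, at 20.5% of gaps, and gaps of at least 100 kb fall from 6.30% in Rep1 to 2.90% in the combined set.

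Clusters were grouped at short range. At 2.5 to 5 kb from a cluster's centre, other clusters of the same library covered 18.5% of bases in Rep1 and 21.1% in Rep2, 2.12-fold and 1.79-fold above the average of the whole stretch. At 10 to 20 kb the ratio was 1.66 and 1.53. It fell to 1.25 and 1.24 at 20 to 50 kb and to 1.08 in both libraries at 50 to 100 kb. From 100 to 200 kb it was 0.972 and 0.968. Neighbouring 100-kb windows accordingly had almost unrelated coverage, with a Spearman rho of 0.0650 in Rep1 and 0.0636 in Rep2 over 259 windows. The widths of neighbouring clusters were also nearly unrelated, with a rho of 0.0347 and 0.0804. These correlations describe sites of 1 library and carry no test. For the ratios by distance, clusters under 1 kb apart were kept separate. Regions called in several pieces may therefore raise the ratio nearest a cluster, which was not tested.

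**Figure D3:**
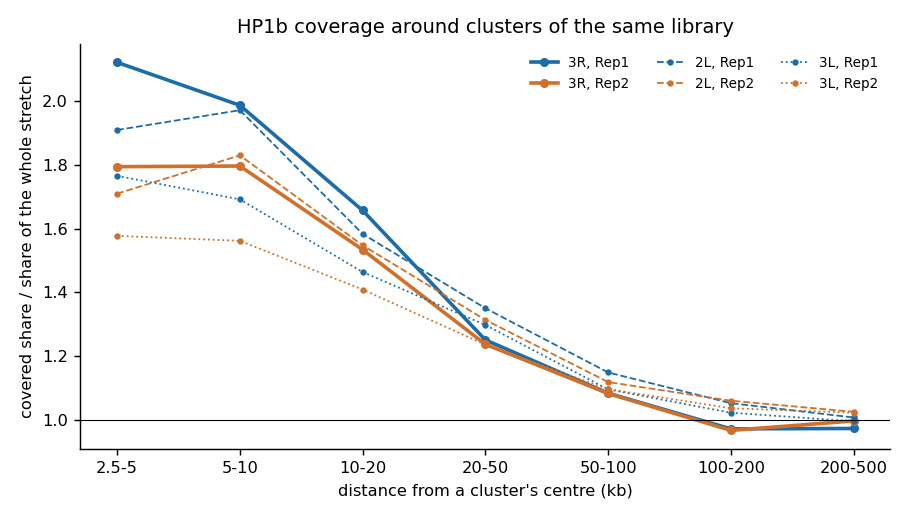
Covered share around cluster centres divided by the share of the whole stretch (vertical axis; the line at 1 marks equal shares) by distance from the centre (horizontal axis, kb), for 3R in thick lines and for 2L and 3L in thin dashed and dotted lines. On 3R the ratio is 2.12 and 1.79 nearest the cluster and is close to 1 beyond 50 kb in both libraries.

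When combined clusters with gaps of up to 5 kb were chained together, the 1380 members formed 736 chains. Single clusters made up 30.0% of members, and 46 chains of 5 or more held 20.1%. Members in chains had a median width of 2262 bp, and 63.5% of them were touched by a cluster of both replicates, where a shared base counts as touching. Single members had a median width of 2067 bp, and 53.4% of them were touched by both. The largest chain had 9 members in 39.7 kb at 5580258 to 5619944. Rep1 covered 36.3% of that chain and Rep2 covered 51.9%. The next chains had 8 members each, at 4626272 to 4653048 and at 12864884 to 12891942. Rep1 covered 44.5% and 31.2% of them, and Rep2 covered 49.4% and 53.2%. In each of these 3 chains between 1 and 2 members were touched by neither replicate.

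Coverage of 100-kb windows ran from 0% to 45.4% in both Rep2 and the combined set. The median window had 8.00% of its bases in clusters in Rep1, with a maximum of 35.1%, and the median was 10.8% with a maximum of 45.4% in Rep2. The top quartile of windows, 64 windows ranked by the mean of both libraries, carried 52.2% of the covered bases of Rep1 and 50.1% of those of Rep2. Coverage of a window is close to the product of its cluster number and its mean bases per cluster, so relations with both are partly built in. The rho with number was 0.980 in Rep1 and 0.974 in Rep2 over all 259 windows. With mean bases per cluster it was 0.459 and 0.496, over windows holding a cluster only, so the values rest on different windows. Windows of the top quartile held 7.44 and 8.84 clusters each with a mean of 2470 and 2698 bp per cluster. Windows of the bottom quartile held 0.438 and 0.859 clusters with 2011 and 1968 bp each. The quartiles were ranked by coverage itself, so the direction of these contrasts was largely set beforehand. The number of combined clusters per window had a variance 2.38 times its mean, and the replicates gave 2.20 and 2.31, where independent placement at one rate would give a value near 1.

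**Figure D4:**
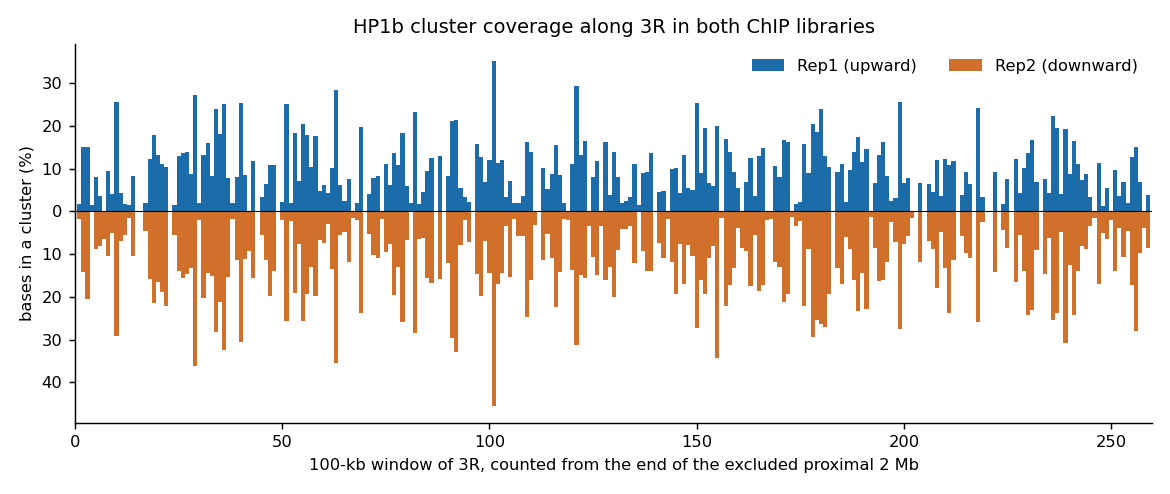
Share of bases in clusters (vertical axis, percent; Rep1 upward and Rep2 downward) for each of 259 windows of 100 kb along 3R (horizontal axis, windows counted from the end of the excluded proximal 2 Mb). The windows rise and fall together in both libraries, and the tallest in each is the same window, at 35.1% and 45.4%.

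Dense windows were largely shared between the libraries, and Rep1 had more bare windows than Rep2. Coverage of the 259 windows had a rho of 0.95 between Rep1 and Rep2. Of the 26 windows covered most in each library, 23 were shared. The densest window by the mean of both libraries, from 12000001 to 12100000, ranked first in Rep1, in Rep2 and in the combined set. It was followed by 8200001 to 8300000, with 28.5% in Rep1 and 35.6% in Rep2, and by 4800001 to 4900000, with 27.1% and 36.2%. Next came 14000001 to 14100000, with 29.3% and 31.2%, and 5500001 to 5600000, with 25.2% and 32.5%. The last of these overlaps the 9-member chain. At the other extreme, 40 windows had no covered base in Rep1 and 24 had none in Rep2. Bare in both were 21 windows, and 17 of these had no covered base in the combined set either. The 21 tie at 0 and have no order among themselves. Cutting the stretch into 3 equal parts from the centromere outward, these parts held 7, 4 and 10 of the 21. Stretches of at least 50 kb bare in all 3 lists, which do not depend on the window grid, fell outward instead. They numbered 42, 38 and 33 in the same parts.

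The window from 12000001 to 12100000 held 3 members of at least 5 kb, more than any other 100-kb window of the stretch. Its 9 members had a median width of 4387 bp. Higher medians were found in the windows from 13500001 to 13600000 (4501 bp, 5 members) and from 16300001 to 16400000 (5856 bp, 2 members). The member at 12030180 to 12040982 (10.8 kb) was covered to 70.7% by 2 clusters of Rep1 and to 90.4% by 1 of Rep2. That at 12072538 to 12082872 (10.3 kb) was covered to 76.4% and 99.2% by 1 cluster of each library. Between them lay the member at 12059566 to 12063952 (4387 bp), whose score was at percentile 99.2 of the combined set. Its clusters were at percentile 98.7 in Rep1 and 99.5 in Rep2. This was the only member among both the 8 highest-scoring ones touched by both replicates and the window's 9. The remaining 6 members ranged from percentile 5.36 to 92.1, and only the last, at 12088708 to 12090784, had no cluster in Rep1. The window thus joined very broad, very strong and weak members within less than 80 kb of each other.

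The next 4 windows by coverage had lower median widths, of 2363 to 2805 bp, with 9 to 13 members each. From 8200001 to 8300000 there were 11 members with a median width of 2805 bp, the widest at 8254020 to 8260886 (6.87 kb). Of these 11, 10 were touched by both replicates. The other, at 8296746 to 8298018 (1273 bp), was touched by neither replicate although its score of 2.69 was at percentile 99.2 of the combined set. From 4800001 to 4900000 there were 13 members with a median width of 2451 bp. They included the second widest member of the stretch, at 4872154 to 4884866 (12.7 kb), which a single cluster of Rep2 covered to 99.3% and 2 clusters of Rep1 covered to 92.9%.

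The widest members did not form a single class. Of the 8 widest touched by both replicates, 5 exceeded 10 kb. The widest was at 23741212 to 23756046 (14.8 kb), made of 4 clusters in Rep1 and 3 in Rep2, which covered 88.7% and 96.2% of it. The third, at 10106872 to 10119074 (12.2 kb), was made of 3 and 2 clusters, and its score was only at percentile 59.7. Replicate clusters of that member were at percentile 59.8 and 32.8 for the piece of largest overlap. By contrast the member at 6207520 to 6217312 (9.79 kb) was 1 cluster in each library, at percentile 91.8 in the combined set, 91.1 in Rep1 and 89.8 in Rep2. The remaining pair of the 8 were neighbours 1485 bp apart, at 7034504 to 7043236 (8.73 kb) and 7044722 to 7053558 (8.84 kb). All 62 members of at least 5 kb were touched by both replicates, against 95.7% of the widest 276 members and 60.4% of all 1380. A shared base counts as touching, and a wide member offers more bases. Rep1 had 2 or more clusters in 26 of the 62 and Rep2 in 15, so these held pieces that a library called apart.

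The 8 strongest members touched by both replicates were wider than the combined median of 2206 bp but not among the widest. The member at 8296746 to 8298018, touched by neither, scored 2.69 and was narrower, at 1273 bp. The highest score on the stretch touched by both replicates, 3.03, was at 11054040 to 11056632 (2593 bp), at percentile 99.6 of the combined set. Rep1 scored it 3.02 (percentile 99.9) and Rep2 scored it 3.22 (percentile 99.8), the highest score of the stretch in each list. It was followed by 7835080 to 7837546 (2467 bp, combined score 2.76), 21297660 to 21300284 (2625 bp, 2.74) and 3732038 to 3734404 (2367 bp, 2.71). The remaining 4 were the member of the densest window at 12059566 to 12063952 (2.68), then 7386870 to 7389962 (2.66), 21876946 to 21879768 (2.58) and 4173970 to 4176730 (2.57). These 8, chosen among members touched by both replicates, were 2.37 to 4.39 kb wide and at percentile 99.0 to 99.6 of the combined set. In each library 1 cluster covered each of them to between 85.7% and 100%. Only the member at 12059566 to 12063952 exceeded 4 kb. None of the 8 was among the 8 widest.

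Long bare stretches broke up the arm. Bare in all 3 lists, 113 stretches of at least 50 kb spanned 10.7 Mb, or 41.5% of the 25.9 Mb. The longest, from 23815693 to 24150967, measured 335 kb. It lay near dense sequence on its proximal side, where the adjoining 100 kb were covered to 27.5% in Rep1 and 28.5% in Rep2 and held the widest member of the stretch. The adjoining 100 kb on its distal side were covered to 9.10% and 14.1%. The second bare stretch ran from 23119492 to 23381879 (262 kb). Its adjoining 100 kb were covered to 22.8% and 33.1% on the proximal side and to 13.1% and 15.6% on the distal side. The third, from 24172152 to 24369455 (197 kb), was separated from the longest by only 21.2 kb. Those 21.2 kb formed an island of 7 members, covered to 43.0% in Rep1 and 66.7% in Rep2, in 554 kb of which 96.2% was bare. Of the island's members, 4 were touched by both replicates, and the strongest, at 24164456 to 24167366, was at percentile 97.8 of the combined set, 95.7 of Rep1 and 98.5 of Rep2. The remaining bare stretches of the 5 longest lay at 6784735 to 6981634 (197 kb) and 8891952 to 9084058 (192 kb). All 5 stretches lay between combined clusters of 1601 to 3307 bp. Whether unmappable sequence or assembly gaps lie in them was not examined.

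Coverage was uneven at the scale of 1 Mb as well. It ran from 5.31% to 14.8% in Rep1 and from 7.02% to 19.1% in Rep2 over the 25 full windows, with a rho of 0.951 between the libraries. After the window from 5000001 to 6000000, which had the highest coverage in both, the windows from 19000001 to 20000000 (12.4% and 16.0%) and from 7000001 to 8000000 (13% and 14.7%) had the highest means. Sparse windows were those from 22000001 to 23000000 (5.31% and 7.10%) and from 15000001 to 16000000 (5.99% and 7.02%). The densest window, from 5000001 to 6000000 (14.8% and 19.1%), lay next to the sparse one from 6000001 to 7000000 (5.37% and 8.86%). Between 19000001 and 23000000 the mean of both libraries fell in steps, from 14.2% to 12.2%, 10.9% and 6.20%. In other places neighbouring windows swung up and down, with means of 12.8%, 7.33%, 12.8% and 6.51% between 12000001 and 16000000. Coverage of 100-kb windows 10 windows apart had a rho of -0.0482 in Rep1 and -0.0138 in Rep2. Whether the 1-Mb windows differ more than sets of unrelated 100-kb windows would was not tested. In the same 3 parts, coverage was 9.24%, 8.72% and 8.15% in Rep1 and 12.1%, 11.9% and 11.3% in Rep2, a fall outward in both libraries that was smaller than the difference between them. The last 100 kb before the end of the arm's sequence held 4 members and were covered to 3.91% in Rep1 and 6.84% in Rep2. At the proximal boundary the first member lay at 2023344 to 2025306 (1963 bp, percentile 19.2, touched by both replicates), and the last cluster left out lay at 1995748 to 1996752 (1005 bp, percentile 29.5, touched by neither).

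Replicate support was higher on 3R than over all sequences. Of the 1380 members, 834 were touched by both replicates, which is 60.4% (95% Wilson interval 57.8 to 63.0), against 51.3% of all clusters of the combined set. On the like parts of 2L and 3L the shares were 59.3% (56.4 to 62.2) and 58.5% (55.9 to 61.1), and the intervals overlap that of 3R. Of the rest, Rep2 alone touched 313, Rep1 alone touched 51, and 182 (13.2%) had a cluster of neither library. From the side of the libraries, 877 of the 937 clusters of Rep1 were touched by Rep2, or 93.6% (91.8 to 95). In the other direction 854 of 1185 were touched, or 72.1% (69.4 to 74.5). These intervals cover counting error only, and neighbouring clusters are not independent. By bases, the libraries shared 64.6% of what either covered.

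Support by both libraries rose with width, and with score up to the fourth quintile. Members were sorted into quintiles of 276. Of the narrowest quintile, up to 1665 bp, 0.362% were touched by both replicates and 60.1% by neither. In the middle quintile, from 2057 to 2381 bp, 85.1% were touched by both, and in the widest quintile 95.7% were. Sorted by score, members touched by both were 10.5% of the lowest quintile, 21% of the second, 73.2% of the third, 98.9% of the fourth and 98.6% of the highest. Those touched by neither did not fall steadily. They were 19.9% of the lowest quintile and 35.5% of the second, then 8.70% of the third, 0.362% of the fourth and 1.45% of the highest. Narrow members account for most of the unsupported ones, since 121 of the 182 were narrower than the narrowest replicate cluster. Among the other 1225 members, 4.98% were touched by neither and 68.0% by both.

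**Figure D5:**
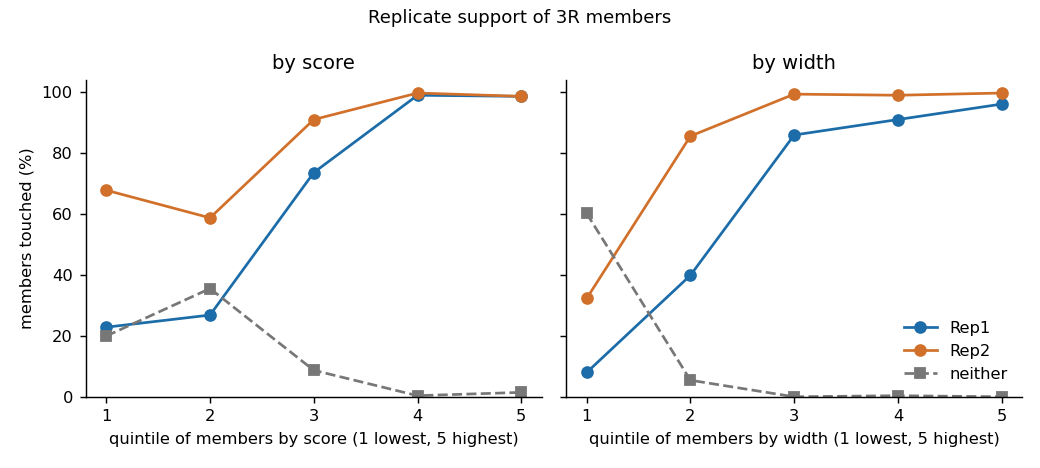
Share of 3R members touched by clusters of Rep1, Rep2 or neither (vertical axis, percent) in quintiles of 276 members by combined score (left) and by width (right). Support is 98.6% in both libraries in the top quintile by score, and the share touched by neither peaks at 35.5% in the second quintile by score and at 60.1% in the narrowest quintile.

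A few strong members had no support. Of 155 members above the 90th percentile of combined scores, 153 were touched by both replicates and 2 by neither. Those were the cluster at 8296746 to 8298018 named above and the one at 3533316 to 3535302 (1987 bp), with a score of 2.38 at percentile 98.3. The third highest unsupported member, at 26906506 to 26907524 (1019 bp), was at percentile 84.0. In all, 10 unsupported members scored above the median of the combined set. These members rest on the combined set alone.

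Edges were placed closely where both libraries had a cluster. Over 797 pairs of 1 cluster in each library, the start differed by a median of 102 bp and the end by 94 bp, and in 79.8% of pairs both edges lay within 500 bp. Rep2 was the wider of the pair in 84.9%, and the median ratio of Rep2 to Rep1 width over all 797 pairs was 1.07. Members of the combined set followed Rep2 more closely than Rep1. Their starts lay a median of 32 bp from that of the matching cluster of Rep2 and 88 bp from that of Rep1. Scores of the 797 pairs had a rho of 0.857 and widths a rho of 0.746. Within its own list, the score of a pair moved by a median of 10.2 percentile points, and 19.3% of pairs moved by more than 25 points. Clusters that a library had alone were narrower and weaker. The 331 clusters of Rep2 alone had a median width of 1912 bp and a median percentile of 17.4, against 2464 bp and 65.2 for the shared ones. The 60 of Rep1 alone had 1585 bp and 12.9, against 2227 bp and 52.6.

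Set beside 2L and 3L, 3R had the coverage of 2L and slightly less than 3L, each without its proximal 2 Mb. The arm 2R was not compared. Coverage of 3R was 1.01 and 1.00 times that of 2L in Rep1 and Rep2, and 0.929 and 0.923 times that of 3L. Median widths were alike, with ratios of 3R to 2L and to 3L between 1.00 and 1.02 in both libraries. Gaps of at least 50 kb spanned 56.6% and 47.6% of 3R in Rep1 and Rep2, 56.2% and 47.1% of 2L, and 49.3% and 40.0% of 3L. Grouping at short range was tighter on 3R than on 3L in both libraries, with ratios of 2.12 against 1.77 in Rep1 and 1.79 against 1.58 in Rep2 at 2.5 to 5 kb. On 2L the ratios were 1.91 and 1.71, and clusters under 1 kb apart were kept separate on every arm. At 20 to 50 kb 2L was above 3R, with 1.35 and 1.31 against 1.25 and 1.24, and 3L had 1.30 and 1.24. The variance-to-mean ratio of clusters per 100-kb window was 2.20 and 2.31 on 3R. It was higher on 2L, at 2.36 and 2.43, and lower on 3L, at 2.11 and 2.12. At 100 to 200 kb 3R was below 1 in both libraries, while 2L had 1.05 and 1.06 and 3L had 1.02 and 1.04. Differences in one direction in both libraries give an exact two-sided sign test of p = 0.5, the smallest that 2 libraries allow, so none of these passes a test.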

How the data were processed

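HP1b ChIP-seq clusters of whole third-instar larvae were analysed from the 2 ChIP libraries (1 list each) and from a replicate set deposited for the series, called the combined set here. The submitters' processing notes name Bowtie 0.12.7. The sources used here do not give the cluster caller, its threshold or how the combined set was made. Per the file headers, coordinates are on FlyBase release 5. Each deposited row has a start, an end and the authors' score, whose scale is not given. The score was used only to rank clusters within a list. Rows the authors marked as depleted (0, 1 and 2 in replicate 1, replicate 2 and the combined set, none on 3R) were dropped.

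Shares, gaps, windows, overlaps and ranks were computed with Python 3.11.15, numpy 2.4.6 and scipy 1.17.1, and the interval code was tested on simulated data. All starts in the combined set on 3R were even numbers, against 50.3% and 47.8% in the replicates. Covered shares are given as mean ± SD over 2 libraries, shares of clusters with 95% Wilson intervals. Regions named were the 8 widest and 8 highest-scoring members touched by both replicates, the 3 highest touched by neither, the 5 longest bare stretches, the 5 densest and 5 emptiest 100-kb windows (the latter tied at 0 and so not named), the 3 largest chains and the clusters at the 2 Mb boundary. The members of the densest windows and of the island between bare stretches were chosen for description after their values were seen. Members and rules were chosen with earlier results of these data known. The gene table at hand is on release 6, so no gene or sequence was assigned. Read depth is unknown.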

Additional observations from a re-analysis of the deposited data

How the results depend on the processing

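Of 57 alternatives, 36 kept their value within 1 SD between replicates or within its Wilson interval, and 21 moved. A change of direction could be scored only for the ratio of 3R to 2L and 3L together, which stayed below 1 in all its alternatives. For the 6 that leave out a replicate, staying within 1 SD holds by construction. They gave a covered share of 8.70% to 11.8%, 36.2 to 45.7 clusters per Mb and a ratio of 0.959 to 0.964 (0.962 over both). Keeping the higher-scoring 50% of each list lowered the covered share to 6.06% and the number to 20.4 per Mb by construction. It gave a median width of 2625 bp, a median gap of 10876 bp, a variance-to-mean ratio of 2.01, and 96.5% of replicate 1 clusters touched by replicate 2. Merging clusters under 1000 bp apart gave a width of 2331 bp, a gap of 7709 bp, 63.8% of members touched by both and a variance-to-mean ratio of 1.87. A minimum width of 1.30 kb, the narrowest replicate cluster, gave 2299 bp, 68.0% and 2.28. With reciprocal 50% overlap, 86.3% of replicate 1 and 68.3% of replicate 2 clusters were matched. Replicate 1 alone gave a gap of 8303 bp and a variance-to-mean ratio of 2.20, replicate 2 alone a width of 2278 bp, and 50-kb windows a variance-to-mean ratio of 1.91. Leaving out the proximal 1 Mb or 4 Mb moved the ratio to the other arms to 0.978 and 0.979, and the cause was not tested. Ratios between arms were taken within each library. No paired analysis was possible because no second group sharing replicate numbers with the ChIP libraries was analysed here. The planned count of gene starts was not run, for want of a release 5 annotation.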
